A study of Bos taurus and Capra hircus with 9 samples.

Results

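The miR-99/100, miR-125 and miR-10 entries are a group of conserved miRNAs that were measured in milk-derived extracellular vesicles (EVs) of goats and cows. The members were taken by name, as every entry of the table called miR-99a, miR-99b, miR-100, miR-125a, miR-125b, miR-10a or miR-10b with or without an arm suffix, which gave 7 of the 296 listed entries, 1 for each name. The libraries came from 4 Alpine goats (goats 17, 44, 79 and 127), sampled at 26 ± 9 days postpartum, and 5 Holstein Friesian cows (cows 1, 2, 3, 20 and 62), sampled at 30 ± 7 days, with 1 library per animal. The goats were in their first lactation, and no source used here gives the parity of the cows. All milk was freed of cells and fat, treated with acetic acid to remove caseins, and passed through a sucrose gradient, and goat milk alone received a further addition of acetic acid. Species, farm, breed and that step therefore cannot be told apart, and reads of both species were counted on bovine miRBase entries.

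miRNAs are short RNAs that lower the output of mRNAs matched by their seed, the bases near their 5′ end. In mammals the miR-99/100 and miR-125 miRNAs are made together from shared primary transcripts (polycistrons), each holding a miR-99/100 member, a let-7 member and a miR-125 member. miR-99 and miR-100 are known to lower mTOR and IGF1R, which drive growth signalling. miR-125 is the mammalian relative of lin-4, which times larval development in the worm Caenorhabditis elegans, and let-7 and miR-125 both act on LIN28. miR-10a and miR-10b lie inside the Hox clusters, which hold the genes that pattern the body axis.

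The mature sequences in the table are shown because they set which members share a seed and which could exchange reads. They are written 5′ to 3′ as DNA letters, with the seed (bases 2 to 8) in capitals.
bta-miR-99a-5p: aACCCGTAgatccgatcttgt
bta-miR-99b: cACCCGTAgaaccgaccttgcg
bta-miR-100: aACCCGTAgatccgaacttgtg
bta-miR-125a: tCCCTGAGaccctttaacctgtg
bta-miR-125b: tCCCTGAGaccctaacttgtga
bta-miR-10a: tACCCTGTagatccgaatttgtg
bta-miR-10b: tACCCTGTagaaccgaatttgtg
The 7 members thus carried 3 seeds, and no other entry of the table had any of them. miR-10a and miR-10b differed by the single substitution T12A (the base of miR-10a, the position from the 5′ end, the base of miR-10b). miR-99a-5p and miR-100 shared their first 15 bases and differed by T16A and by 1 more base at the 3′ end of miR-100. miR-99b stood further off, with 4 differences from miR-100, its nearest entry. miR-125a and miR-125b were identical over their first 13 bases. miR-10a and miR-100, of different seeds, were only 3 edits apart and shared the run gtagatccgaa. Whether reads of one member were counted on another was not tested.

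All 7 members matched a bovine gene name in NCBI RefSeq (assembly ARS-UCD2.0). There MIR99A has MIRLET7C as its next miRNA gene and MIR125B-2 as the one after, and all of them overlap the same long noncoding RNA gene. MIR100 is followed likewise by MIRLET7A-2 and MIR125B-1, and MIR99B by MIRLET7E and MIR125A. They are called the 99a, 100 and 99b types here. Mature miR-125b can come from both MIR125B-1 and MIR125B-2, and mature let-7a from MIRLET7A-2 and from genes elsewhere, so neither value belongs to a single polycistron. MIR10A overlaps HOXB3, next to HOXB4 and HOXB5, and MIR10B overlaps HOXD4, next to HOXD3. No positions are given, because no source used here gives the build behind the deposited values.

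The values are in TPM, a scaled count of tags written as whole numbers, and no source used here gives the total to which the tags were scaled. A tag is 1 read of a whole miRNA, so TPM of different miRNAs can be set side by side without a correction for length, although library preparation does not capture every sequence equally. The listed entries summed to 239233 to 406336 TPM in goats and 267316 to 420029 TPM in cows. These sums are 23.9% to 40.6% of the full TPM scale in goats and 26.7% to 42.0% in cows. TPM keep no read number, so neither the reads of a single library nor its counting error can be given, and whole-number values of a few TPM are imprecise. The animals of a species are treated as replicates, and p-values judge the difference between species against the variation between animals. Lists of epithelial markers summed to 27864 to 49878 TPM in goats and 32291 to 46038 TPM in cows (7 of 7 listed). In the same milk leukocyte markers summed to 444 to 1230 TPM in goats and 17 to 52 TPM in cows (7 of 7 listed). Stromal and endothelial markers summed to 217 to 429 TPM in goats and 19 to 30 TPM in cows (4 of 8 listed), mostly miR-143, and miR-145 and miR-218 were at 0 in every cow. The endothelial miR-126-3p of this list did not follow the sum, at 0, 1, 3 and 0 TPM in goats 17, 44, 79 and 127, and 5, 0, 2, 5 and 2 TPM in cows 1, 2, 3, 20 and 62 (adjusted p = 0.144, limma). In bulk vesicle RNA, fewer vesicles from a cell type and less of a miRNA per vesicle cannot be told apart.

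In goats 4 of the members were lower, namely miR-99a-5p, miR-99b, miR-125a and miR-125b, each with a goat mean between 0.39 and 0.45 times the cow mean and with every goat below every cow. These are both flanking miRNAs of the 99a and 99b types. miR-100 and miR-10b did not pass the test, and miR-10a was seen in goats only. The test was limma on log2(TPM + 1) in 1 fit of all 217 entries that exceeded 1 TPM in 4 or more libraries, and p-values were adjusted over those entries by Benjamini-Hochberg (threshold 0.05). All 7 members passed that filter, miR-10a and miR-10b with the least allowed, 4 libraries each. Across all tested entries 24.0% were called lower in goats and 37.3% higher, while 20.3% had every goat below every cow and 30.9% every goat above. The median log2 fold change, goat minus cow, was -1.21 over the 7 members and 0.24 over the 217 entries.

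**Figure D1:**
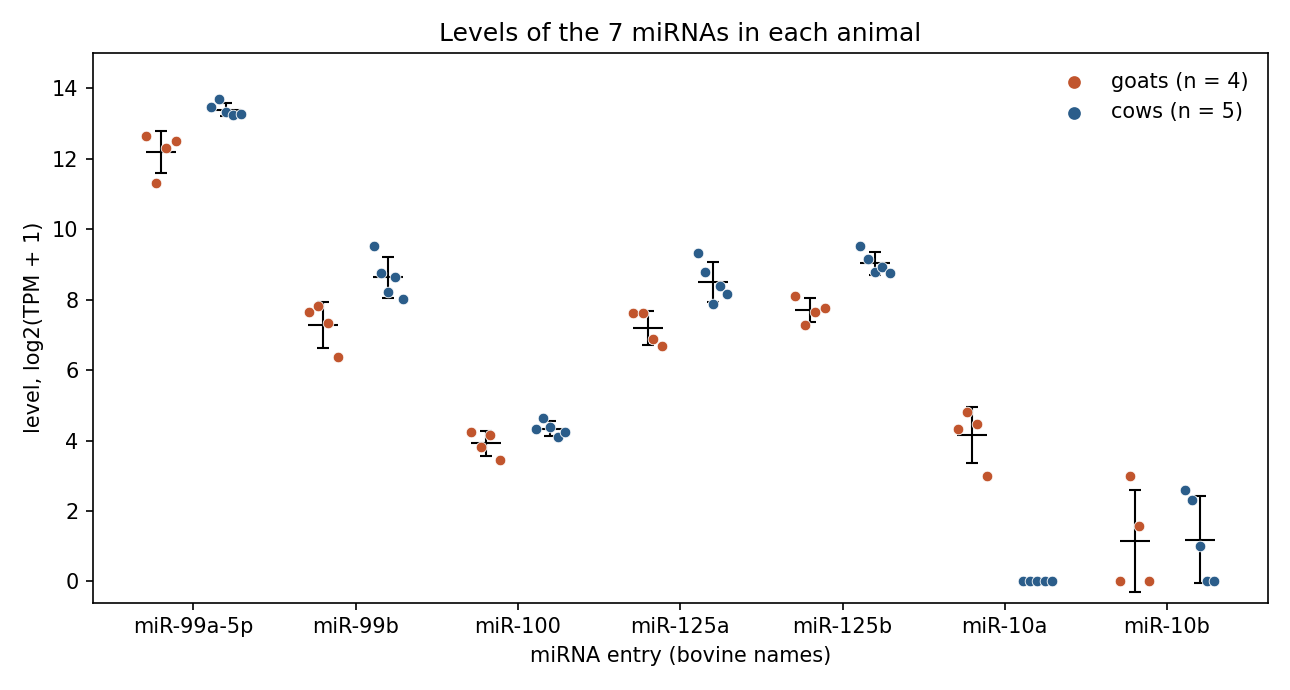
Level of each of the 7 miRNAs on the log2(TPM + 1) scale, with a point for each animal (goats left, n = 4; cows right, n = 5), a bar at the mean and whiskers of 1 SD of the log2 values. miR-99a-5p stands far above the rest in both species, the goat and cow points of miR-99a-5p, miR-99b, miR-125a and miR-125b do not overlap, and all 5 cows lie at 0 for miR-10a.

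miR-99a-5p was by far the most abundant member. It was at 6403, 2536, 5031 and 5742 TPM in goats 17, 44, 79 and 127, against 11295, 13240, 10266, 9577 and 9881 TPM in cows 1, 2, 3, 20 and 62. Every goat was below every cow, and goat 44 was lowest of all. The fit gave a log2 fold change of -1.21 with a standard error of 0.28 (limma, adjusted p = 0.00143). It ranked 11 to 17 among the listed entries of single goats and 7 to 10 in single cows. Of the TPM of the 7 members it made up 88.6 ± 5.65% in the 4 goats and 89.0 ± 2.90% in the 5 cows (mean ± SD), so the members' summed share of the listed TPM, 1.24% to 2.58% in goats and 3.20% to 4.04% in cows, is mostly a reading of miR-99a-5p.

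miR-99b, the seed mate of miR-99a-5p in the other polycistron, was far less abundant. Its levels were 198, 224, 159 and 81 TPM in goats 17, 44, 79 and 127, and 735, 427, 296, 401 and 259 TPM in cows 1, 2, 3, 20 and 62. The groups did not overlap, but goat 44 at 224 TPM and cow 62 at 259 TPM were close. In the limma fit its log2 fold change reached -1.35 ± 0.35 (standard error), at an adjusted p of 0.00381. The cows were as uneven as the goats here, with a coefficient of variation of 44.3% in cows and 37.7% in goats, whereas for miR-99a-5p it was 34.3% in goats and 13.7% in cows.

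miR-100, which has the same seed and nearly the sequence of miR-99a-5p, was scarce in both species. It was at 18, 13, 17 and 10 TPM in goats 17, 44, 79 and 127, against 19, 24, 20, 16 and 18 TPM in cows 1, 2, 3, 20 and 62, and the ranges overlapped. The log2 fold change was -0.42, with a 95% interval from -1.01 to 0.17 and an adjusted p of 0.209 (limma). It passed as lower in goats when libraries were scaled by median of ratios (adjusted p = 0.0335, limma) or to the listed total without miR-148a, the most abundant entry (adjusted p = 0.0421, limma).

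Both miR-125 members were lower in goats. miR-125b was at 274, 155, 201 and 218 TPM in goats 17, 44, 79 and 127, against 739, 570, 436, 482 and 432 TPM in cows 1, 2, 3, 20 and 62. The highest goat stood well below the lowest cow, with a fold change of -1.32 on the log2 scale (limma, standard error 0.26, adjusted p = 3.63e-04). miR-125a was at 196, 194, 116 and 102 TPM in goats 17, 44, 79 and 127, against 638, 437, 234, 331 and 286 TPM in cows 1, 2, 3, 20 and 62. Again no goat reached a cow, with goat 17 at 196 TPM nearest to cow 3 at 234 TPM. The fit gave a log2 fold change of -1.31 with a standard error of 0.32 (limma, adjusted p = 0.00256).

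The calls of these 4 members held whichever of the 9 animals was left out. The log2 fold changes then ran from -1.36 to -0.92 for miR-99a-5p, from -1.53 to -1.04 for miR-99b, from -1.46 to -1.10 for miR-125a and from -1.45 to -1.18 for miR-125b, and the highest adjusted p was 0.0196 (limma), for miR-99b. Under each other scaling, pseudocount, filter and variance setting tried, the 4 were lower as well. The leukocyte and stromal sums given above were higher in goats, opposite to these 4 members, and the epithelial sums overlapped between the species; their part in the result was not tested.

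The let-7 members of the same polycistrons did not pass the test on the deposited TPM. let-7c, between miR-99a and miR-125b-2, was at 1154, 811, 1396 and 763 TPM in goats 17, 44, 79 and 127, against 2073, 1747, 1475, 1270 and 1147 TPM in cows 1, 2, 3, 20 and 62. In the limma fit its log2 fold change reached -0.59 ± 0.26 (standard error), at an adjusted p of 0.0652, and it passed as lower in goats under all 3 other scalings (adjusted p between 9.32e-04 and 0.00738, limma) and without goat 79 or cow 62 (lowest adjusted p 0.0278, limma). let-7e, between miR-99b and miR-125a, was at 143, 150, 155 and 49 TPM in goats 17, 44, 79 and 127, against 236, 156, 95, 106 and 116 TPM in cows 1, 2, 3, 20 and 62. Apart from goat 127 at 49 TPM, the goats lay inside the cow range, and the log2 fold change was -0.24 with a 95% interval from -1.04 to 0.56 (adjusted p = 0.594, limma), turning to 0.16 without goat 127. let-7a-5p averaged 13021 ± 4805 TPM in the 4 goats and 17518 ± 5530 TPM in the 5 cows (± SD). It had an adjusted p of 0.221 (limma), and passed as lower with median-of-ratios scaling (limma, adjusted p = 0.0229) and with scaling to the listed total without miR-148a (adjusted p = 0.00777, limma). In the whole let-7 family with miR-98, 1 of 10 entries was higher in goats, 1 was lower and 8 did not pass, with a median log2 fold change of -0.22. let-7c and let-7a-5p differ by 1 base (G19A), and exchange of reads between let-7 entries was not tested.

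**Figure D2:**
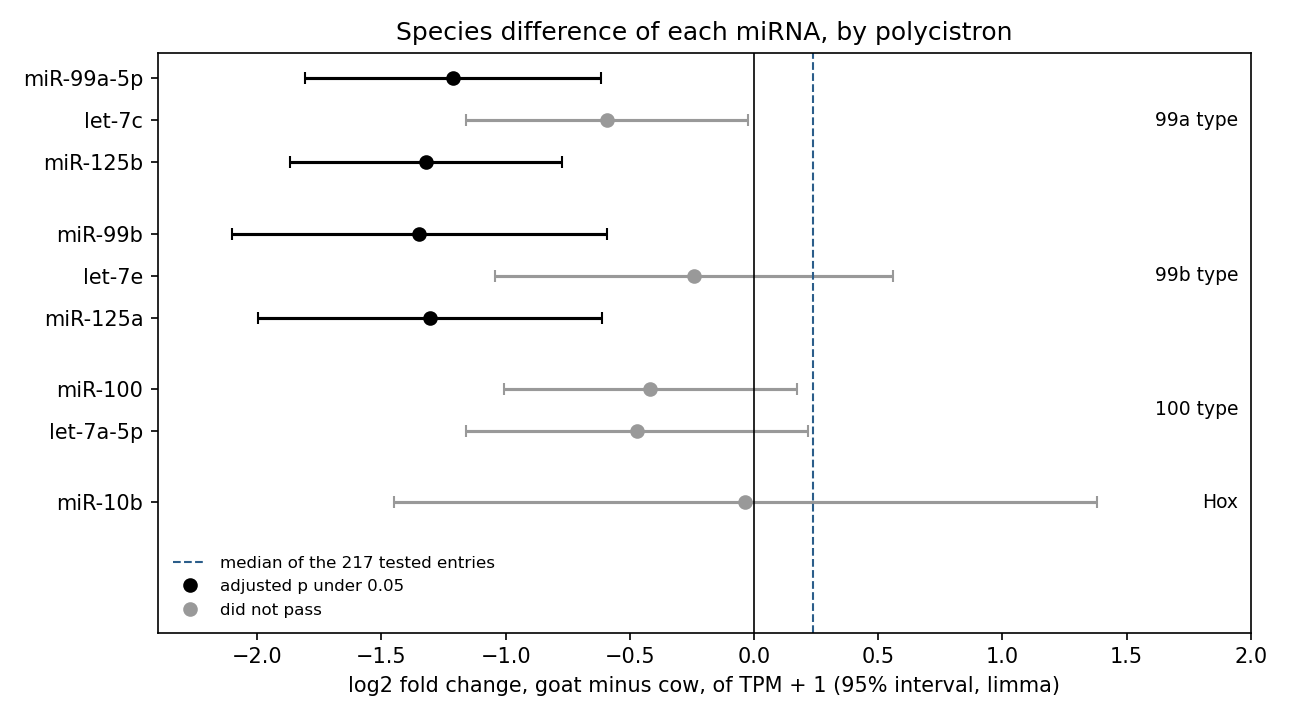
Log2 fold change, goat minus cow, of TPM + 1 with its 95% interval from limma (4 goats, 5 cows), grouped by polycistron; black points passed an adjusted p of 0.05, grey ones did not, and the dashed line is the median of the 217 tested entries (0.24). The miR-99 and miR-125 members of the 99a and 99b types lie between -1.35 and -1.21, and the let-7 member between them lies nearer to 0. miR-10a is left out because all 5 cows are at 0; miR-125b is drawn with the 99a type only.

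The ratio of a pair of miRNAs within an animal does not depend on how libraries are scaled, apart from the pseudocount of 1, and tests whether the 2 miRNAs differed between the species by the same factor. Of 15 pairs set out, 12 had both miRNAs above 0 in every animal and were compared between species by a two-sided exact permutation test over all 126 splits of the animals, with Benjamini-Hochberg adjustment over the 12. With these group sizes p cannot fall below 0.00794. A total of 5 pairs had an unadjusted p under 0.05 and 4 an adjusted one.

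Between the miR-99 and miR-125 members of a polycistron no species difference in ratio passed the test. miR-99b was 1.01, 1.15, 1.37 and 0.79 times miR-125a in goats 17, 44, 79 and 127, and 1.15, 0.98, 1.26, 1.21 and 0.91 times in cows 1, 2, 3, 20 and 62, so the pair was near parity in all 9 animals. The difference of the log2 ratios, goat minus cow, was -0.04, with a 95% interval from -0.51 to 0.34 by inversion of the exact permutation test (adjusted p = 0.944). miR-99a-5p was 16.4 to 26.3 times miR-125b in goats and 15.3 to 23.5 times in cows, a difference of 0.11 on the log2 scale (95% interval -0.41 to 0.56, exact permutation test, adjusted p = 0.833).

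Against let-7, miR-99b, miR-125a and miR-125b were lower in goats, while miR-99a-5p and miR-100 did not pass. miR-99b was 1.38, 1.49, 1.03 and 1.65 times let-7e in goats 17, 44, 79 and 127, and 3.11, 2.74, 3.12, 3.78 and 2.23 times in cows 1, 2, 3, 20 and 62, with no overlap. The difference of the log2 ratios was -1.11 (95% interval -1.59 to -0.67, exact permutation test, p = 0.00794, adjusted p = 0.0238). miR-125a was 0.75 to 2.08 times let-7e in goats and 2.46 to 3.12 times in cows, a difference of -1.06 (95% interval -1.70 to -0.51, exact permutation test, adjusted p = 0.0238). miR-125b was 0.144 to 0.286 times let-7c in goats and 0.296 to 0.380 times in cows, a difference of -0.73 (95% interval -1.21 to -0.29, exact permutation test, adjusted p = 0.0238). Goat 127 was the goat nearest to the cows in these 3 ratios. For miR-99a-5p over let-7c the species overlapped, at 3.13 to 7.53 in goats and 5.45 to 8.61 in cows, and the difference of -0.62 did not pass (exact permutation test, p = 0.0873, adjusted p = 0.175), with an interval from -1.26 to 0.07.

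**Figure D3:**
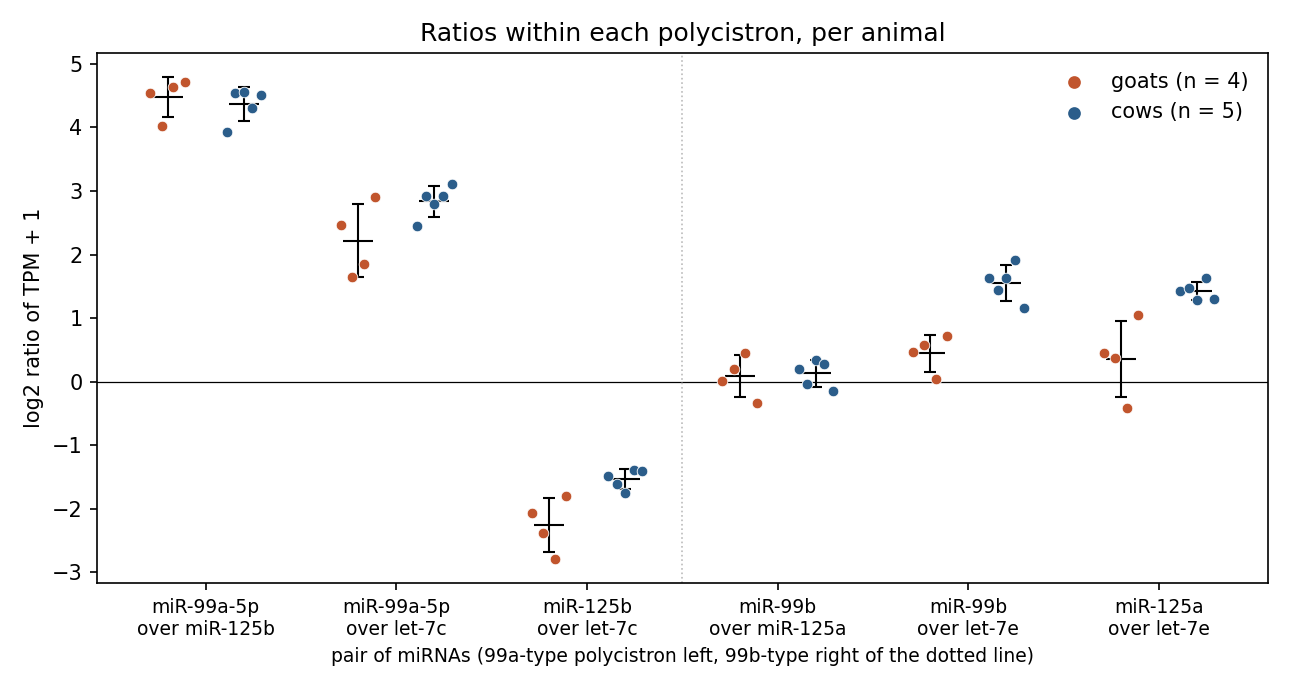
Log2 ratio of TPM + 1 for pairs of miRNAs of the 99a type (left of the dotted line) and the 99b type (right), with a point for each animal (goats left, n = 4; cows right, n = 5), a bar at the mean and whiskers of 1 SD. The ratio of miR-99 to miR-125 overlaps between the species in both types, while miR-125b over let-7c, miR-99b over let-7e and miR-125a over let-7e are lower in all 4 goats than in any cow.

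Relative to miR-125b, which the 100 type could also yield, miR-100 was higher in goats. miR-100 over miR-125b was 0.066, 0.084, 0.085 and 0.046 in goats 17, 44, 79 and 127, and 0.026, 0.042, 0.046, 0.033 and 0.042 in cows 1, 2, 3, 20 and 62. Goat 127 and cow 3 had the same ratio, set apart only by the pseudocount, and the other goats were above all cows. The difference of the log2 ratios was 0.90 (95% interval 0.21 to 1.53, exact permutation test, p = 0.00794, adjusted p = 0.0238). Against miR-99a-5p the difference was 0.79 (95% interval 0.16 to 1.43), and it passed before adjustment only (exact permutation test, p = 0.0238, adjusted p = 0.0571). Against let-7a-5p it was 0.05 (95% interval -0.40 to 0.60, exact permutation test, adjusted p = 0.944). With any animal left out, the 4 ratios that passed stayed at the smallest p their smaller design allows, 0.0179 without a goat and 0.0286 without a cow (exact permutation test), but the adjusted p rose to between 0.0536 and 0.0857 in 8 of the 9 runs and passed only without goat 127, at 0.0429.

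The 99a and 99b types were not shown to differ in their species difference. miR-99a-5p was 32.3, 11.3, 31.6 and 70.9 times miR-99b in goats 17, 44, 79 and 127, and 15.4, 31.0, 34.7, 23.9 and 38.2 times in cows 1, 2, 3, 20 and 62. The cow values lay inside the goat range, and the difference of the log2 ratios was 0.14 with a wide interval, from -1.20 to 1.31 (exact permutation test, adjusted p = 0.944). It turned to -0.27 without goat 127. For miR-125b over miR-125a the difference was -0.02 (95% interval -0.84 to 0.59, exact permutation test, adjusted p = 0.968), and for let-7c over let-7e it was -0.35 (95% interval -1.04 to 0.44, exact permutation test, adjusted p = 0.531).

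Goats 44 and 127 stood apart from the other goats in several entries. Goat 44 had the lowest miR-99a-5p and miR-125b of the goats, at -0.88 and -0.42 from the goat mean on the log2 scale, and the highest miR-99b, at 0.53 from it. Goat 127 had the lowest miR-99b and miR-125a, at -0.92 and -0.51, and also the lowest let-7c, let-7e and let-7a-5p, but its miR-99a-5p and miR-125b lay at 0.30 and 0.07 from the goat mean. In goat 17 miR-99a-5p, miR-125b, miR-99b and miR-125a were all above it, by 0.35 to 0.46. In cows, cow 1 was highest for miR-99b, miR-125a, miR-125b, let-7c, let-7e and let-7a-5p, and cow 2 was highest for miR-99a-5p. The TPM were not rescaled for these deviations. Among goats the listed total was 406336 TPM in goat 17, 369984 TPM in goat 79, 254807 TPM in goat 44 and 239233 TPM in goat 127. Among cows it was highest in cow 1 (420029 TPM). The part of these totals in the orders was not tested. Ranked within each library, miR-125a was lowest in goat 79 (rank 85) and not in goat 127 (rank 76). By rank goat 44 stayed lowest for miR-99a-5p and miR-125b and highest for miR-99b, and goat 127 stayed lowest for miR-99b. With so few animals these orders are given as values.

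**Figure D4:**
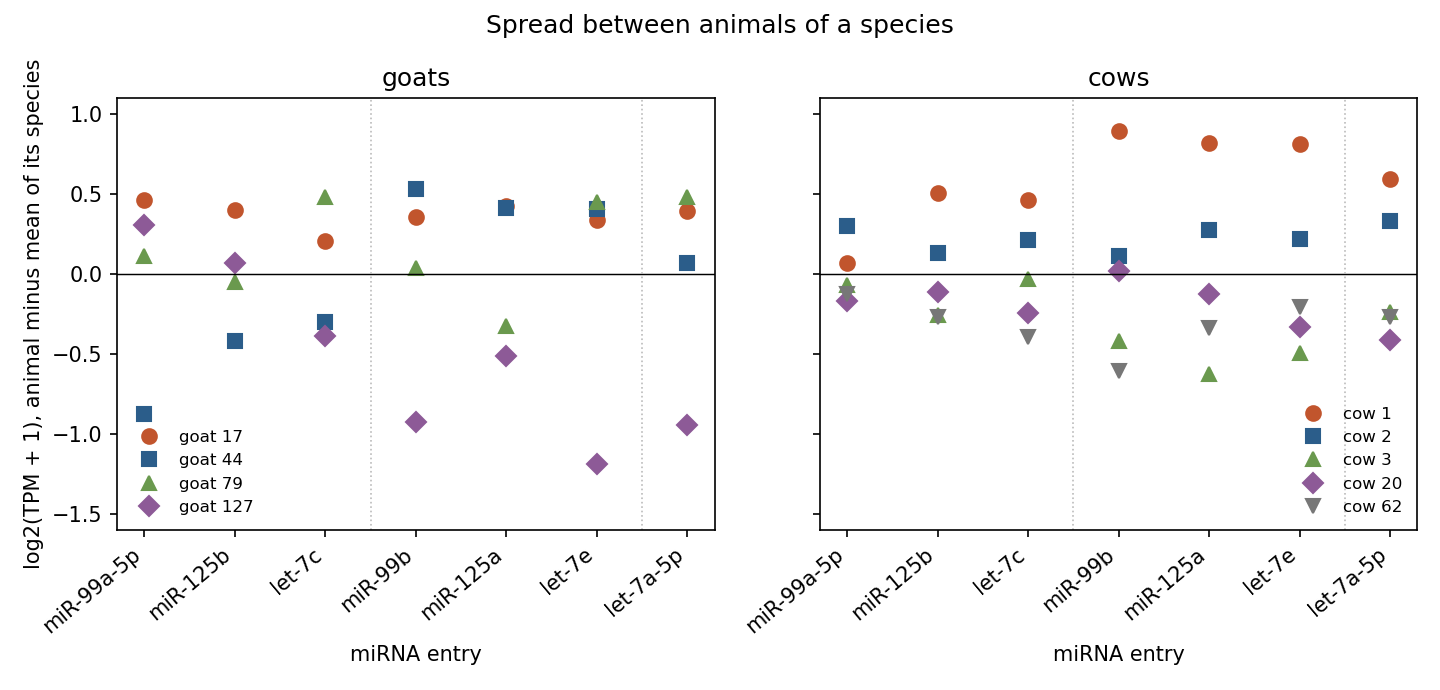
Deviation of each animal from the mean of its species on the log2(TPM + 1) scale (left panel, 4 goats; right panel, 5 cows), with a point for each animal; dotted lines separate the 99a type, the 99b type and let-7a-5p. Goat 44 is lowest for miR-99a-5p and miR-125b and highest for miR-99b. Goat 127 is lowest for the 99b type, let-7c and let-7a-5p but not for miR-99a-5p or miR-125b. In cows, cow 1 is highest for all entries but miR-99a-5p. The TPM are as deposited and are not rescaled to the listed totals, which differ between animals.

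The SD over the 9 animals of the log2 ratio to a member was used to find the entries most like it, a low SD meaning a steady ratio. For miR-99b the most like of all 216 other tested entries was miR-125a, and for miR-125a it was miR-99b, with an SD of 0.25. For miR-99a-5p, miR-125b was second (SD 0.27), behind miR-141, an epithelial miRNA of the miR-200 family (SD 0.26). miR-141 averaged 399 ± 134 TPM in the 4 goats and 940 ± 239 TPM in the 5 cows (± SD). It was the only 1 of the 7 epithelial markers called lower in goats, while 5 did not pass. The remaining marker, miR-205, was called higher, but only the 4 goats exceeded 1 TPM. It thus entered the test through goats alone, which fixed its direction. For miR-125b the first were miR-1839 (SD 0.20), miR-24 (SD 0.23) and miR-660 (SD 0.26), and miR-99a-5p came next. The entry named miR-24 was also of a few TPM, with a goat mean of 3.75 and a cow mean of 9. It is listed apart from miR-24-3p, which was far more abundant. That entry had a log2 fold change of 0.42 and did not pass (adjusted p = 0.246, limma). miR-100 was steadiest against miR-92b (SD 0.20), miR-532 (SD 0.22) and let-7d (SD 0.22). Outside the members, miR-99a-5p was next most like miR-500 (SD 0.30) and miR-29d-3p (SD 0.33), both of a few TPM. The others were miR-7859 (SD 0.39), miR-140 (SD 0.43) and let-7b (SD 0.47) for miR-99b. Those for miR-125a were miR-7859 (SD 0.40), miR-1839 (SD 0.43) and the same scarce miR-24 entry (SD 0.43). All animals entered these SDs, so a like species difference lowers them as much as a like order of animals does.

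The Hox-cluster pair was scarce in both species. miR-10a, from the HOXB cluster, was at 19, 27, 21 and 7 TPM in goats 17, 44, 79 and 127 (mean 18.5 ± 8.39 TPM, SD, n = 4) and was listed at 0 in all 5 cows. It entered the test through goats alone, which fixed its direction, and no fold is given against a group at 0. miR-10b, from the HOXD cluster, was at 0, 7, 2 and 0 TPM in goats 17, 44, 79 and 127, against 5, 4, 1, 0 and 0 TPM in cows 1, 2, 3, 20 and 62. It was thus at 0 in 2 animals of each species, and its log2 fold change of -0.04 had a 95% interval from -1.45 to 1.38 (adjusted p = 0.958, limma), too wide to exclude a change of more than 2-fold either way.

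miR-10a exceeded miR-10b in all 4 goats. In all 5 cows miR-10a was at 0, so miR-10b could not be below it there, and both were at 0 in cows 20 and 62. The pair was not tested, because of these zeros. The entries differ by the single base T12A, and whether goat or cow reads of one were counted on the other was not tested. Among entries outside the members, miR-16b (SD 0.42), miR-205 (SD 0.43) and miR-143 (SD 0.48) had the lowest SD of the ratio to miR-10a at a pseudocount of 1. With every cow at 0 the species difference of miR-10a is set by the pseudocount (4.15 on the log2 scale at 1, 7.38 at 0.1 and 1.46 at 10), so this order, and that all 3 entries were higher in goats, follow from that choice and are no measure of likeness. The stromal and endothelial and the leukocyte sums given above were higher in goats, as miR-10a was, and their part in it was not tested. For miR-10b no entry had an SD below 0.93, that of miR-2478, followed by miR-21-5p (0.94) and miR-181d (0.95). With miR-10b at 0 in 2 animals of each species, these SDs also rest on the pseudocount and are no firm measure of likeness.

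The other miRNAs of mammalian Hox clusters were near the same low level. miR-196a was at 4, 13, 10 and 0 TPM in goats 17, 44, 79 and 127, against 23, 5, 8, 10 and 4 TPM in cows 1, 2, 3, 20 and 62, and its log2 fold change of -0.83 did not pass (95% interval -2.24 to 0.59, adjusted p = 0.291, limma). miR-196b stayed between 1 and 3 TPM in goats and between 0 and 5 TPM in cows (limma, adjusted p = 0.210), and without cow 3 it passed as higher in goats (adjusted p = 0.0271, limma). miR-615 was not analysed here. Of the 4 listed Hox-cluster entries, 1 was called higher in goats, miR-10a, with its direction fixed as stated, and 3 did not pass.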

How the data were processed

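The authors sequenced small RNA libraries (NEBNext kit, NextSeq instrument) of milk-derived EVs, trimmed adapters and counted reads of both species on bovine miRBase 20 entries. No source used here gives the mapping program or the genome build. The values the authors deposited are a score, TPM rounded to whole numbers, covering 9 libraries and 296 entries. Read numbers of single libraries and the total behind the TPM were not in the sources used here, so no counting interval was computed. The members and lists were chosen with earlier results of these data known.

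From these values, log2(TPM + 1) was compared between 4 goats and 5 cows with limma 3.58.1 in R 4.3.3 (variance trend, 217 entries above 1 TPM in at least 4 libraries, Benjamini-Hochberg over all of them, threshold 0.05). Ratios of pairs of entries were compared by exact permutation in Python 3.11.15 (numpy 2.4.6). Both were tested on simulated data. Named entries were the members, the let-7 entries of their polycistrons, Hox-cluster miRNAs, entries sharing a member's seed, listed neighbours within 10 kb in RefSeq, and the 3 tested entries with the steadiest ratio to each member. Alternatives were other pseudocounts (0.1 and 10), filters, scalings and variance settings, medians for the ratios, and leaving out each animal in turn, with the tested entries kept. No 2 libraries held the same values. Other arms of the members were not analysed here.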

Additional observations from a re-analysis of the deposited data

Results flagged for a closer look

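let-7e in goat 127, at 49 TPM, stood apart from the other goats (143, 150 and 155 TPM), with a gap that took 0.887 of the range of the 4 goats. It was the only such value in 45 groups of animals examined over the members, their let-7 partners and their ratios, and chance alone gives about 1 in 20.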

How the results depend on the processing

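Of the 217 tested entries 133 passed, 81 higher and 52 lower in goats. With the 155 entries above 0 in all libraries, fewer entries were tested and 72 passed, 39 higher and 33 lower. With an animal left out, 126 to 141 passed, 76 to 94 higher and 47 to 57 lower. miR-99a-5p, miR-99b, miR-125a and miR-125b kept direction and call under all 9 other settings. miR-100 became a call under median-of-ratios scaling (-0.49) and scaling to the listed total without miR-148a (-0.50), the cause was not tested, and ran from -0.53 to -0.26 with an animal left out. miR-10b turned to 0.016 with a pseudocount of 10 and 0.10 with scaling to the listed total, and ran from -0.65 to 0.35 with an animal left out, never passing. let-7e ran from -0.39 to 0.16 then.

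With medians in place of means, the ratios miR-125b/let-7c (-0.74), miR-99b/let-7e (-1.11), miR-125a/let-7e (-1.02) and miR-100/miR-125b (0.84) had an adjusted p of 0.0571 (exact permutation test), while miR-125b/miR-125a turned to 0.094 and miR-100/let-7a-5p to -0.23, without passing. miR-100/miR-99a-5p passed with a pseudocount of 10 (0.94, adjusted p = 0.0190, exact permutation test). With an animal left out the differences ran from -0.27 to 0.61 for miR-99a-5p/miR-99b, -0.21 to 0.26 for miR-125b/miR-125a, -0.88 to -0.55 for miR-125b/let-7c, -1.21 to -0.97 for miR-99b/let-7e, -1.29 to -0.80 for miR-125a/let-7e, -0.16 to 0.096 for miR-99b/miR-125a, 0.54 to 1.05 for miR-100/miR-99a-5p, 0.77 to 1.08 for miR-100/miR-125b and -0.11 to 0.13 for miR-100/let-7a-5p. The fewer splits of 8 animals raise the adjusted p there. No paired analysis was possible because each library came from a different animal and nothing links a single goat to a single cow. Low TPM are limited by whole-number rounding, most so for miR-10b at up to 7 TPM. For it, for miR-10a (up to 27 TPM) and for miR-100 (up to 24 TPM), the read number of single libraries is not known either.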
